A study of Mus musculus with 4 samples.

Results

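Marker genes of the immune cells that live in skeletal muscle were followed in soleus muscle of wildtype and HSL-null mice. The markers are 42 genes chosen by name, covering macrophages and monocytes, leukocytes in general, T cells, B and plasma cells, mast cells and cytotoxic lymphocytes. A probe set (the group of probes that reads 1 transcript) was used where the platform annotation gave it a single symbol, and each gene was read by its brightest probe set. This left 39 of the 42 markers, among 8251 named genes on the array. Lyz1 shares its only annotated probe set with Lyz2, and Cd163 and Nkg7 had no probe set of their own in the annotation.

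The soleus is a slow-twitch calf muscle. Muscle from 5 female mice, 6 months old, was pooled for each genotype. The 2 arrays per genotype were taken as technical duplicates of 1 pool. The genotypes are wildtype and HSL-null, that is, mice that lack the Lipe product hormone-sensitive lipase. The sources used here give neither their strain nor the kind of allele. With the arrays read as 1 pool per genotype, the errors below are those of duplicate arrays, not of animals, and no p-value was computed.

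Resident macrophages lie between muscle fibres and around vessels and clear debris. They make the complement protein C1q and display the CSF1 receptor and scavenger receptors. Mast cells sit in connective tissue along vessels and nerves, and store proteases (chymases, tryptases and carboxypeptidase A3) in granules. Lymphocytes are sparse in healthy muscle. In RNA of whole muscle, fewer cells of a type and less RNA per cell cannot be told apart.

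The arrays were on 1 scale, with trimmed means of 100.1 on each, and their brightest probe sets reached 5646 to 6183. Lipe measured 71.4 and 70.2 in wildtype and 16.2 and 19.4 in HSL-null. All 7 skeletal muscle markers were above the expression filter (a mean intensity of 27.7, the median of all probe sets), with summed levels of 31142 and 29799 in wildtype and 32267 and 31095 in HSL-null. The ratio of 3′ to 5′ signal, a measure of RNA quality, was, for beta-actin, 0.819 ± 0.00532 (SD of 2 arrays) in the HSL-null pool and 0.697 ± 0.0126 in the wildtype pool, and for Gapdh 0.917 ± 0.00716 and 0.941 ± 0.0203. The part of these ratios in the marker values was not tested.

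Summed over the 39 markers, the level was 1348 and 1348 in wildtype and 1356 and 1345 in HSL-null, so that the genotypes overlapped. Of the 39 markers, 15 passed the filter and 24 did not. A gene counted as separated where both HSL-null arrays lay on the same side of both wildtype arrays, with the closest of the 4 array pairs at least 1.5-fold apart. Of the 15 markers 0 were separated upward and 0 downward in HSL-null, against 0.206% and 0.247% of the 4851 named genes above the filter. A weaker description is that the arrays of the genotypes did not overlap, whatever the size of the gap. By that rule 2 of the 15 markers were higher (C1qa and Ighm), 4 were lower (Laptm5, Tpsb2, Cma1 and Cpa3) and 9 overlapped. Among all 4851 genes 19.7% were higher and 21.5% lower by the same rule, so that the markers' counts lie near this background. With each array centred on its median, those shares were 13.7% and 27.7%, and 2 markers were higher and 6 lower, the added ones being Csf1r and Lyz2. Leaving out 1 array leaves 2 array pairs, so that more genes meet the rule: 4 markers higher and 8 lower without the first wildtype array, 5 and 5 without the second, 4 and 5 without the first HSL-null array, and 4 and 7 without the second. Of all named genes above the filter, 33.4% to 35.1% were then higher and 35.8% to 36.9% lower.

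**Figure D1:**
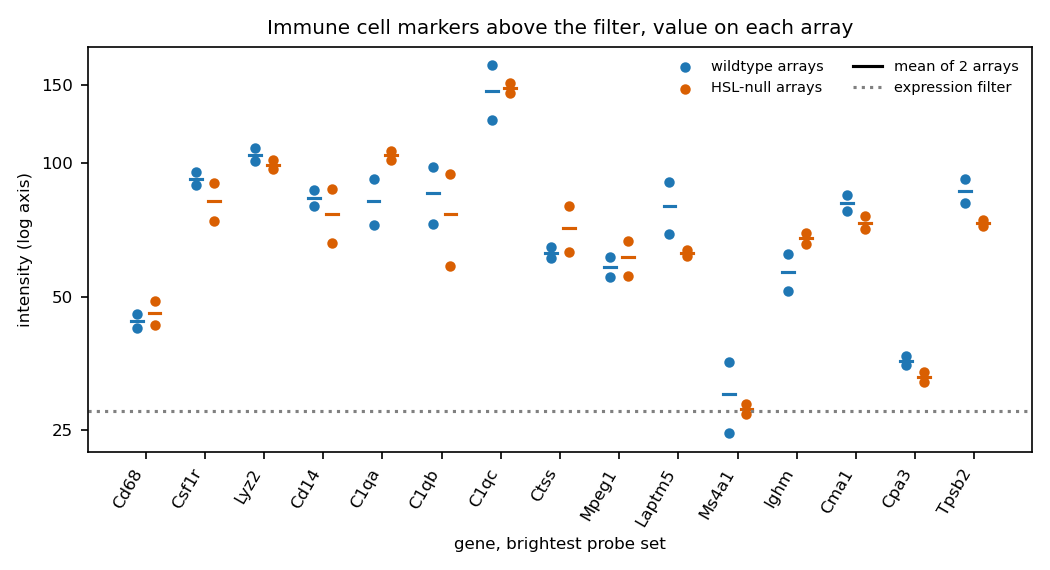
Intensity (log axis) of the 15 immune cell markers above the expression filter, with 1 point per array, 2 wildtype and 2 HSL-null arrays per gene, and a short line at the mean of the 2; the dotted line marks the filter at 27.7. The points of the genotypes interleave for 9 genes; those of C1qa and Ighm lie higher in HSL-null, and those of Laptm5, Cma1, Cpa3 and Tpsb2 lower.

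Most of these differences were no larger than the spread between duplicate arrays. The median size of the log2 difference between genotypes was 0.15 for the 15 markers, against 0.15 between the wildtype duplicates and 0.085 between the HSL-null duplicates of the same genes. For 11 of the 15 markers (73.3%) the difference between genotypes was no larger than the wider gap between duplicates, and this was so for 70.7% of all named genes above the filter. The largest difference among the markers was 0.35 on the log2 scale. The median log2 difference (HSL-null minus wildtype) was -0.085 over the markers and -0.0041 over all named genes above the filter. Without the second wildtype array the markers' median turned to 0.0066, and with all probe sets of each gene averaged it was 0.021.

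**Figure D2:**
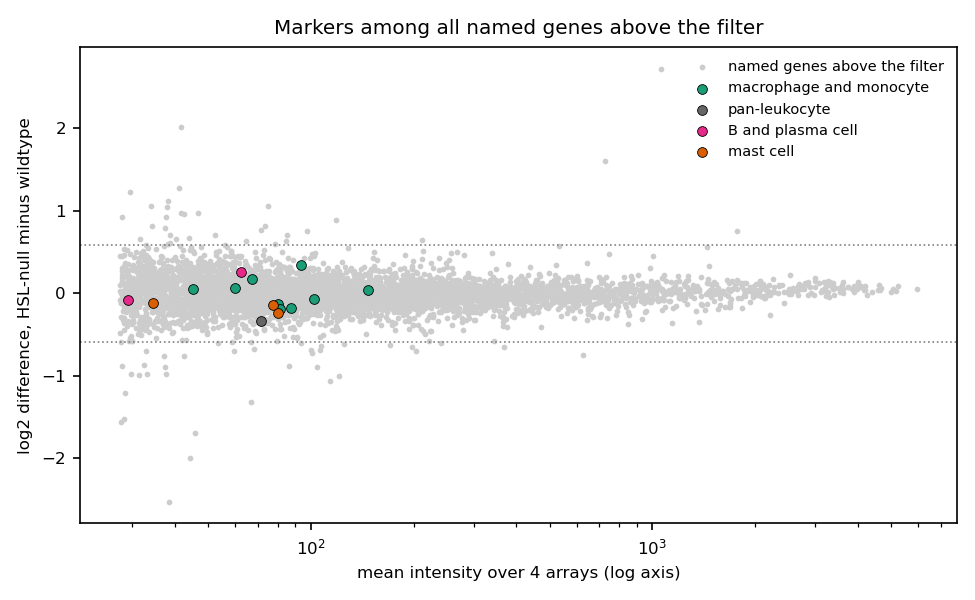
Log2 difference between HSL-null and wildtype (vertical axis) against the mean intensity over the 4 arrays (log axis) for the 4851 named genes above the filter in grey and the 15 markers in colour by cell type; dotted lines mark a 1.5-fold difference. All 15 markers lie between the dotted lines, within the band of grey points of like intensity.

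Macrophage and monocyte markers gave no common direction. Of 21 genes listed the array held 19, and 9 passed the filter, of which 5 lay above 0 and 4 below, with a median log2 difference of 0.036. C1qa alone did not overlap. The summed level of the 19 was 864 and 884 in wildtype and 889 and 876 in HSL-null.

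C1qa, C1qb and C1qc encode the 3 chains of C1q, the recognition part of the classical complement pathway, which assemble into 1 protein. C1qa measured 92.0 and 72.7 in wildtype and 101.7 and 106.7 in HSL-null, a log2 difference of 0.35 ± 0.17 (SE of duplicates), with the HSL-null arrays above both wildtype arrays. The nearest pair of arrays was 0.14 apart, less than the gap between the wildtype duplicates. C1qb measured 72.9 and 98.1 in wildtype and 94.7 and 58.5 in HSL-null, and C1qc 125.2 and 166.0 in wildtype and 144.2 and 151.4 in HSL-null. In both genes the genotypes overlapped, at -0.18 ± 0.41 for C1qb and 0.036 ± 0.21 for C1qc. The other C1qb probe set, with 68.8 and 77.1 in wildtype and 77.6 and 68.5 in HSL-null, overlapped as well. The chains thus did not share the order seen for C1qa.

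Surface receptors of macrophages overlapped between the genotypes. Csf1r, the receptor for the growth factor that keeps macrophages alive, measured 89.3 and 95.3 in wildtype and 74.2 and 90.2 in HSL-null, a log2 difference of -0.17 ± 0.15. Its other probe set had the opposite sign, 0.17 ± 0.16, with 44.4 and 35.7 in wildtype and 45.0 and 44.3 in HSL-null. Cd14, the co-receptor for bacterial lipopolysaccharide, measured 79.9 and 87.0 in wildtype and 66.2 and 87.5 in HSL-null, so that a single HSL-null array was low. Neither receptor separated the genotypes, and the sign for Csf1r depended on the probe set.

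Lysosomal and pore-forming proteins of macrophages overlapped too. Lyz2, the lysozyme of macrophages, measured 108.1 and 100.9 in wildtype and 97.0 and 101.4 in HSL-null. The probe set that reads Lyz1 and Lyz2 together measured 107.2 and 77.7 in wildtype and 95.7 and 97.0 in HSL-null (0.08 ± 0.23), the opposite sign to the -0.075 ± 0.059 of Lyz2 alone. The 2 lysozyme probe sets thus gave no direction. Cd68, a glycoprotein of the lysosome membrane, measured 45.7 and 42.6 in wildtype and 43.1 and 48.9 in HSL-null. Ctss, the cathepsin that trims antigens for MHC class II, measured 64.6 and 61.0 in wildtype and 79.9 and 63.0 in HSL-null. Mpeg1, the pore-forming perforin-2, measured 55.3 and 61.3 in wildtype and 66.9 and 55.7 in HSL-null. In each of these 3 genes 1 HSL-null array fell between the wildtype arrays, and the log2 differences were 0.057 ± 0.10 for Cd68, 0.18 ± 0.18 for Ctss and 0.068 ± 0.15 for Mpeg1.

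The other 10 macrophage markers were below the filter, with intensities from 1.5 to 28.4. Mrc1, the mannose receptor of tissue macrophages, lay just under it at 26.5 and 24.4 in wildtype and 28.4 and 25.1 in HSL-null. Lgals3, the lectin galectin-3 of activated macrophages, measured 19.3 and 18.1 in wildtype and 14.0 and 15.6 in HSL-null, with both HSL-null arrays lower (-0.34 ± 0.091). Itgam, the CD11b integrin chain, measured 4.2 and 5.2 in wildtype and 6.4 and 6.2 in HSL-null, around the floor of 5.7 to which lower values were raised. Fcgr1, Fcgr3, Fcer1g, Tyrobp, Cybb, Adgre1 and Aif1 overlapped, and Aif1 lay at or under the floor on every array. Adgre1, which encodes the macrophage antigen F4/80, measured 13.7 and 4.0 in wildtype and 11.6 and 3.3 in HSL-null. The defining antigens F4/80 and CD11b were therefore too dim on these probe sets to give a difference.

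**Figure D3:**
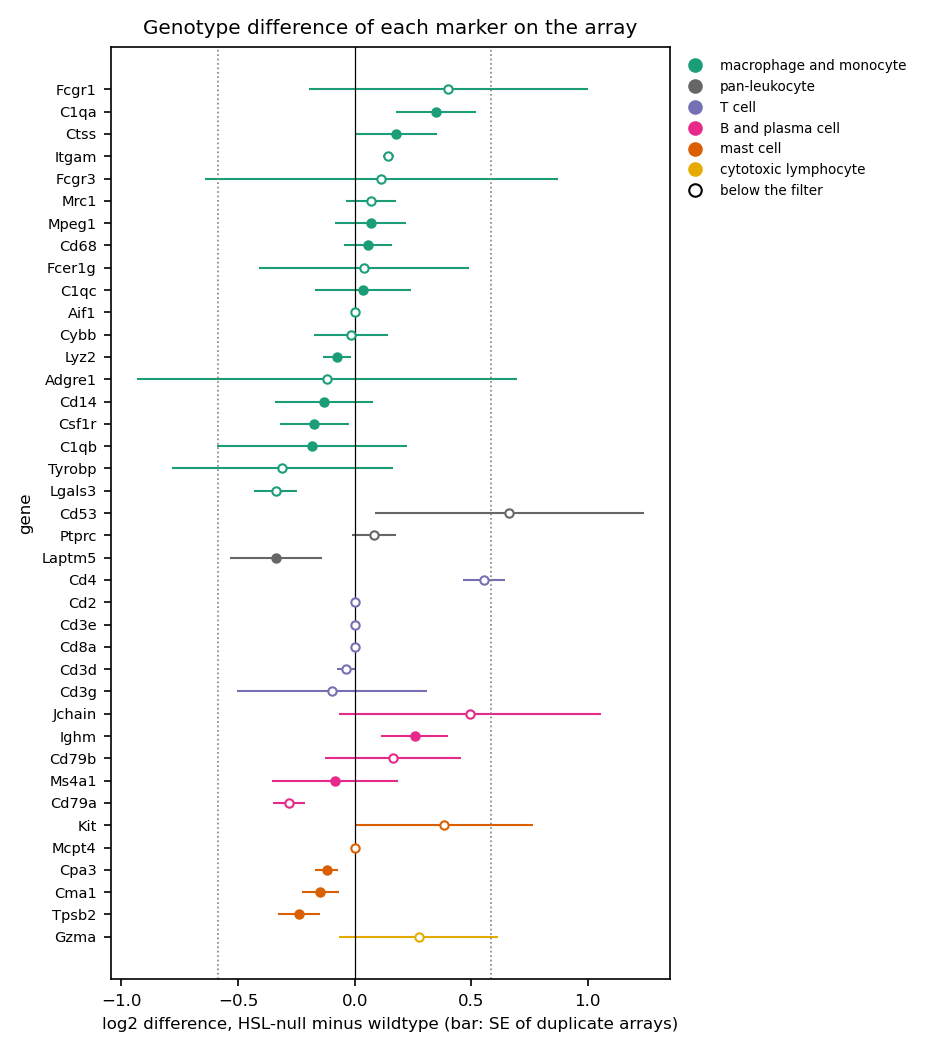
Log2 difference between HSL-null and wildtype for each of the 39 markers on the array, by cell type, with bars for the standard error from duplicate arrays; open circles lie below the filter, and values under the floor of 5.7 were raised to it, which sets some differences and bars to 0. Dotted lines mark 1.5-fold; among the filled circles the range is -0.34 (Laptm5) to 0.35 (C1qa).

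Of the 3 general leukocyte markers, Laptm5 passed the filter. Laptm5, a lysosomal membrane protein of blood cells that limits antigen receptor levels, measured 90.8 and 69.3 in wildtype and 61.7 and 63.8 in HSL-null, a log2 difference of -0.34 ± 0.20. Both HSL-null arrays were lower than both wildtype arrays, and the nearest pair was 0.12 apart. Its other probe set, with 61.5 and 53.7 in wildtype and 53.4 and 44.0 in HSL-null, was lower too (-0.25 ± 0.17), so that Laptm5 kept its order on both probe sets. Ptprc, which encodes the leukocyte antigen CD45, measured 5.8 and 4.3 in wildtype and 6.5 and 4.5 in HSL-null, and the tetraspanin Cd53 measured 5.8 and 1.3 in wildtype and 13.6 and 6.1 in HSL-null. Both lay near the floor, and the Cd53 difference has the opposite sign to that of Laptm5.

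On their brightest probe sets, mast cell granule genes were slightly lower without HSL. Of 5 mast cell markers, 3 passed the filter, and all 3 were lower on all 4 array pairs, with 0 separated and a median log2 difference of -0.15. Among all named genes above the filter, 21.5% were lower on all 4 pairs. Summed over the 5 markers, the level was 207 and 225 in wildtype and 194 and 199 in HSL-null, with both HSL-null arrays lower. Leaving out single arrays gave a median between -0.21 and -0.097, and averaging all probe sets of each gene gave -0.049. The other Cma1 probe sets lay under the floor on every array. Averaging them in shrinks the Cma1 difference by construction and is no check on it.

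Cma1, the chymase of connective tissue mast cells, measured 77.9 and 84.8 in wildtype and 70.9 and 76.0 in HSL-null, a log2 difference of -0.15 ± 0.079. The nearest arrays of the genotypes, at 77.9 and 76.0, were 0.036 apart. Cpa3, the mast cell carboxypeptidase A3, measured 36.7 and 35.1 in wildtype and 32.2 and 33.9 in HSL-null (-0.12 ± 0.049). Tpsb2, a mast cell tryptase, measured 81.5 and 91.9 in wildtype and 74.5 and 72.2 in HSL-null (-0.24 ± 0.090), the largest difference of the 3. In each gene the nearest arrays of the genotypes were closer than the wider gap between duplicates. The values were 0.036 against 0.12 for Cma1, 0.050 against 0.074 for Cpa3 and 0.13 against 0.17 for Tpsb2. The mean differences of the 3 genes were larger than that wider gap.

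A second probe set annotated to Tpsb2 showed the opposite order. It measured 42.4 and 45.7 in wildtype and 47.8 and 48.3 in HSL-null, higher on all 4 array pairs (0.13 ± 0.055). The other Cpa3 probe set was dim, at 10.9 and 4.9 in wildtype and 19.7 and 4.4 in HSL-null, and with the probe sets of a gene averaged Cpa3 turned to 0.15 and Tpsb2 moved to -0.056, both overlapping. The lower mast cell signal is therefore a statement about 3 probe sets. Of the remaining mast cell markers, Mcpt4, another chymase of connective tissue mast cells, lay at or under the floor on every array. Kit, the receptor for stem cell factor on mast cells, measured 7.6 and 12.2 in wildtype and 11.2 and 14.1 in HSL-null, below the filter and overlapping.

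**Figure D4:**
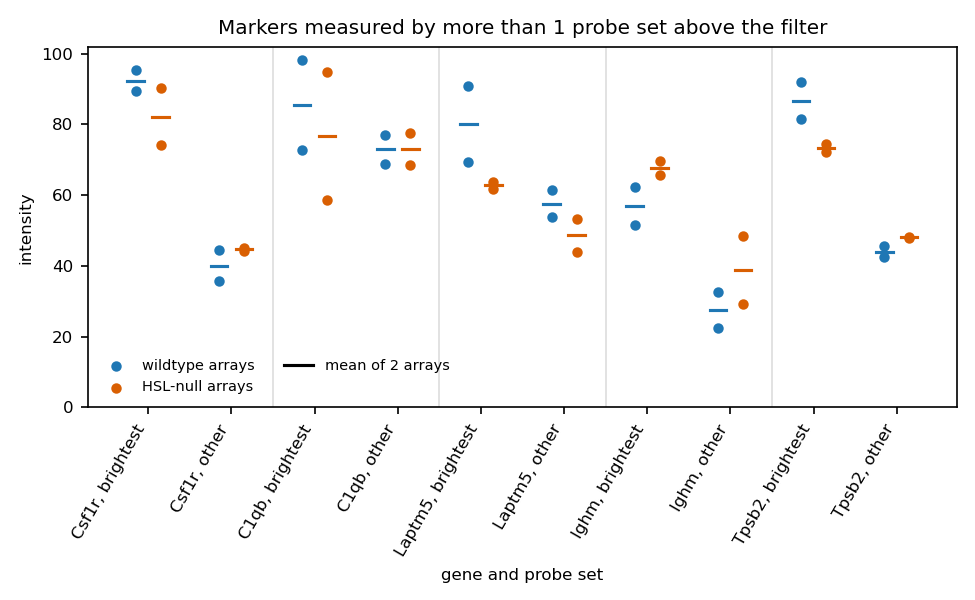
Intensity on each array for the 5 markers with 2 probe sets above the filter (points, arrays; short lines, means of 2 arrays; the brightest probe set of each gene is on the left). Laptm5 is lower in HSL-null on both, Ighm higher in the mean on both, and Tpsb2 and Csf1r differ in sign between their probe sets.

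The sequence before the transcription start is shown for the markers that did not overlap and have an entry in the RefSeq promoter table (GRCm38.p6). These are the mast cell proteases Cma1 and Cpa3, lower together on their brightest probe sets, and Laptm5, lower on both of its probe sets. Tpsb2, C1qa and Ighm have no entry. Each run gives the 250 bases before the start, 5′ to 3′ in the direction of transcription, at chr14:55944676-55944925 (minus strand) for Cma1, chr3:20242182-20242431 (minus strand) for Cpa3 and chr4:130913066-130913315 (plus strand) for Laptm5. Capitals mark GATAA or its reverse complement TTATC, letters read by GATA factors, and GAGGAA or its reverse complement TTCCTC, letters of sites for the myeloid factor PU.1.
Cma1: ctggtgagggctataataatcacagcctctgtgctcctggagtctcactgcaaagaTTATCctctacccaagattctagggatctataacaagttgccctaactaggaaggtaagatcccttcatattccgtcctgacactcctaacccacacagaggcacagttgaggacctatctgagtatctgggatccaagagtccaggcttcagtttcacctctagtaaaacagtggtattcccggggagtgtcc
Cpa3: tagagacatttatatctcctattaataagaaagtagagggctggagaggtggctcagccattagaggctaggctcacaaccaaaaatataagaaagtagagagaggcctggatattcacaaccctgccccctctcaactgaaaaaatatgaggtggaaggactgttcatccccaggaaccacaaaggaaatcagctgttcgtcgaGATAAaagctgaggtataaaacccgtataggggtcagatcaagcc
Laptm5: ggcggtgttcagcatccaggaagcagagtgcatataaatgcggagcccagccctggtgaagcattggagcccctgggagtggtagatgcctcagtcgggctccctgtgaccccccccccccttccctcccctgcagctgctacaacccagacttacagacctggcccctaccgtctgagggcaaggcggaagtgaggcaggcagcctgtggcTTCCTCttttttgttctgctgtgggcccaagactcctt

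The GATAA letters stand 194 to 190 bases before the Cma1 start, on the opposite strand, and 45 to 41 bases before the Cpa3 start. The PU.1 letters stand 38 to 33 bases before the Laptm5 start, on the opposite strand. Of 32851 windows of the same 250 bases in the table, 22.6% hold GATAA on either strand and 23.3% hold GAGGAA, so that a match is common and describes the letters alone.

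Genes further tied to mast cells and basophils, listed beside the markers, were lower in part as well. Of 19 genes listed, the array held 14, with 4 above the filter, and 3 of these 4 were lower in HSL-null without overlap, with a median of -0.23 and 0 separated. By the same rule 21.5% of all named genes above the filter were lower. Gata2, a transcription factor of mast cell precursors that endothelial cells also make, measured 81.3 and 78.7 in wildtype and 72.0 and 64.5 in HSL-null (-0.23 ± 0.083). Il4ra, a receptor chain for interleukin-4 found on many cell types, measured 35.5 and 35.5 in wildtype and 27.8 and 32.6 in HSL-null (-0.24 ± 0.11). With the probe sets of a gene averaged, Il4ra was at -0.092 and overlapped, and Gata2 was at -0.12 and stayed lower. Where an added probe set lies under the floor, such averaging shrinks a difference and keeps its sign. The third lower gene was Cd63, a granule and lysosome tetraspanin of most cells, named after its values were seen. It measured 873 and 826 in wildtype and 740 and 721 in HSL-null (-0.22 ± 0.044). The fourth gene, the mucosal chymase Mcpt1, overlapped at -0.23 ± 0.25. Of the 10 listed genes below the filter, 1 was higher without overlap and 0 were lower. That gene, Mitf, was named after its values were seen. It measured 18.4 and 12.4 in wildtype and 19.1 and 25.5 in HSL-null (0.55 ± 0.35). Of all 3400 named genes below the filter, 451 were higher and 287 lower. These 3 lower genes are not restricted to mast cells, and Fcer1a, Hdc and Tph1, which are closer to them, lay at or under the floor on all arrays.

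**Figure D5:**
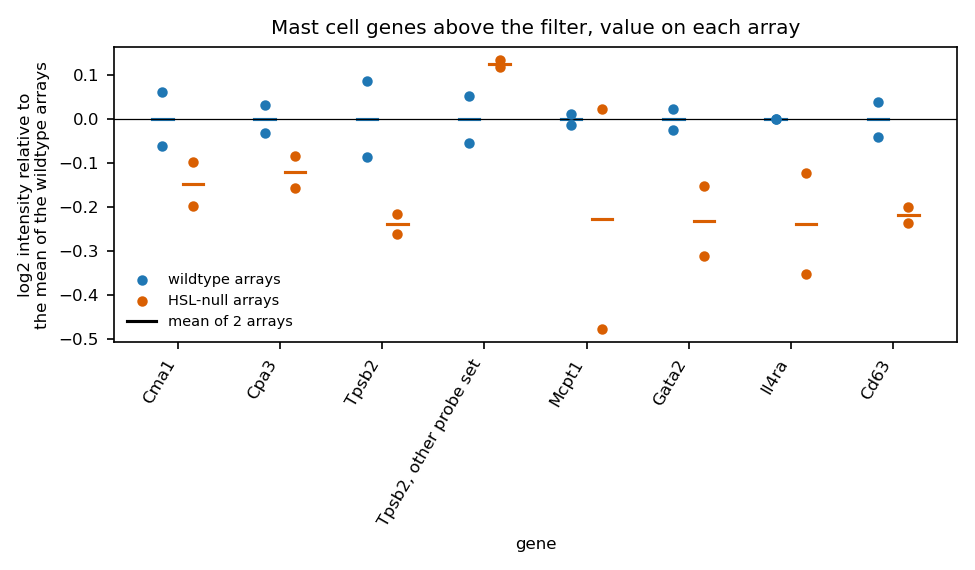
Log2 intensity of mast cell genes above the filter on each array, relative to the mean of the wildtype arrays, for the markers Cma1, Cpa3 and Tpsb2, the other Tpsb2 probe set, and Mcpt1, Gata2, Il4ra and Cd63 (short lines, means of 2 arrays). Both HSL-null points lie under both wildtype points for each gene except Mcpt1, where they straddle them, and the other Tpsb2 probe set, where they lie above.

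B and plasma cell markers showed 1 gene higher without overlap. Ighm, the constant region of immunoglobulin M, measured 62.3 and 51.5 in wildtype and 65.7 and 69.7 in HSL-null (0.26 ± 0.14), with the nearest arrays 0.077 apart. The array holds 15 other probe sets with Ighm as their only symbol, and these may read related immunoglobulin sequences. The single one of them above the filter overlapped, at 32.5 and 22.6 in wildtype and 29.2 and 48.4 in HSL-null (0.47 ± 0.45). One below the filter, named after its values were seen, measured 13.3 and 15.8 in wildtype and 27.9 and 24.2 in HSL-null, 0.84 ± 0.16 higher, and would have met the 1.5-fold rule. A probe set shared by Ighm, Ighg3, Igha and a variable segment was lower, from 137.2 and 132.0 in wildtype to 128.0 and 116.8 in HSL-null (-0.14 ± 0.07). The immunoglobulin probe sets thus did not give one direction.

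The remaining B cell markers were dim. Ms4a1, which encodes the B cell antigen CD20, was the marker closest above the filter and measured 24.6 and 35.7 in wildtype and 27.2 and 28.7 in HSL-null, overlapping. Cd79a, a signalling chain of the B cell receptor, measured 22.3 and 20.5 in wildtype and 18.0 and 17.2 in HSL-null, lower on both HSL-null arrays (-0.28 ± 0.069) but below the filter. Its partner Cd79b measured 6.6 and 4.5 in wildtype and 8.3 and 5.4 in HSL-null, and Jchain, the joining chain of secreted antibodies, 12.8 and 7.2 in wildtype and 10.4 and 17.6 in HSL-null. Cd79a and Ighm, parts of the same receptor, thus had opposite signs.

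T cell markers were close to or under the floor, apart from Cd4. Of the 6, 0 passed the filter. The CD3 chains Cd3d, Cd3e and Cd3g, which define T cells, measured between 1.2 and 9.4, and Cd2 and Cd8a lay at or under the floor on every array. Cd4, the co-receptor of helper T cells, measured 22.5 and 20.1 in wildtype and 32.1 and 30.4 in HSL-null. Both HSL-null arrays were higher by a log2 difference of 0.55 ± 0.090, or 1.47-fold, and the nearest pair was 0.43 apart, under 1.5-fold. The Cd4 mean of 26.3 lay just under the filter of 27.7, so that Cd4 is in none of the counts above the filter, and with the CD3 chains near the floor the cells behind its signal were not tested. The difference was 0.50 to 0.55 under the scalings tried, and 0.16 with the floor raised to the median of the table. Gzma, the granzyme of cytotoxic lymphocytes, measured 4.0 and 7.6 in wildtype and 6.6 and 9.6 in HSL-null, near the floor and overlapping.

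Without the filter, 5 of the 39 markers were higher without overlap (C1qa, Ighm, Cd4, Cd53 and Itgam) and 6 lower (Laptm5, Tpsb2, Cma1, Cpa3, Lgals3 and Cd79a). That is 12.8% and 15.4% of the markers, against 17.0% and 16.1% of all 8251 named genes. By either count the markers did not stand apart from the named genes as a whole.

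Other genes of the same cells were taken from lists written beside the markers. Of 158 such genes the array held 130, of which 35 passed the filter, with 0 separated, 10 higher and 6 lower without overlap, and 19 overlapping. By the same rules 19.7% of all named genes above the filter were higher and 21.5% lower. Below the filter 2 more genes met the 1.5-fold rule, in opposite directions. Cd86, a co-stimulatory ligand on antigen-presenting cells, measured 5.9 and 1.7 in wildtype and 12.3 and 11.7 in HSL-null (1.05 ± 0.044). Was, the actin regulator of blood cells that is lost in Wiskott-Aldrich syndrome, measured 16.2 and 11.5 in wildtype and 4.6 and 4.3 in HSL-null (-1.26 ± 0.25). Both lay on some arrays under the floor of 5.7, which sets the size of these differences and narrows their errors. Among 8 macrophage genes above the filter 3 were higher and 1 lower. Cd9, a tetraspanin of many cell types, measured 73.8 and 51.8 in wildtype and 96.7 and 91.3 in HSL-null (0.60 ± 0.26), and Lgmn, the lysosomal protease legumain, differed by 0.20 ± 0.10 but overlapped with arrays centred on their medians. Spi1, which encodes PU.1 and was named after its values were seen, measured 38.4 and 28.6 in wildtype and 23.5 and 29.8 in HSL-null, overlapping. Of the 19 macrophage genes below the filter, 4 were higher without overlap and 0 lower. Of all 3400 named genes below the filter, 451 were higher and 287 lower. The 4 were Cd86 and, named after their values were seen, Msr1 (0.64 ± 0.21), Pirb (0.53 ± 0.19) and Plac8 (0.33 ± 0.21). Among 10 general leukocyte genes 2 were higher (Coro1a, an actin regulator, 0.21 ± 0.14, which overlapped with median centring, and Selplg, the ligand of P-selectin, 0.16 ± 0.079) and 1 was lower. Of the 11 general leukocyte genes below the filter, 2 were higher and 1 lower without overlap. The lists thus held genes on both sides, with more macrophage genes higher than lower.

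Among 5 lymphocyte genes above the filter 3 were higher and 0 lower, against 19.7% and 21.5% of all named genes above the filter. Thy1, a surface glycoprotein of T cells that fibroblasts and neurons also carry, measured 28.5 and 28.0 in wildtype and 37.4 and 39.6 in HSL-null (0.45 ± 0.043). Lat, the adaptor of T cell receptor signalling, measured 54.5 and 42.9 in wildtype and 55.1 and 60.4 in HSL-null (0.25 ± 0.18), with the nearest arrays 0.016 apart. Of the 23 lymphocyte genes below the filter, 2 were higher and 3 lower without overlap. Of all 3400 named genes below the filter, 451 were higher and 287 lower. The 2 higher and 3 lower lymphocyte genes were named after their values were seen. Gzmb, another granzyme, measured 5.3 and 9.2 in wildtype and 18.2 and 12.3 in HSL-null (1.05 ± 0.45), with a wildtype array under the floor. Sdc1 was higher by 0.18 ± 0.13. Zap70, a kinase of T cell receptor signalling, measured 24.0 and 28.8 in wildtype and 15.2 and 19.2 in HSL-null (-0.62 ± 0.21). Il2rb, a chain of the interleukin-2 receptor, differed by -0.43 ± 0.13 and Cd28, a co-stimulatory receptor of T cells, by -0.23 ± 0.067. Genes of T cell signalling thus lay on both sides. Of 15 granulocyte genes on the array, the single one above the filter, Csf3r, overlapped. S100a9, the calcium-binding protein that neutrophils hold in large amounts, measured between 1.2 and 2.3, under the floor on every array. Of the 14 granulocyte genes below the filter, 3 were higher and 1 lower without overlap, against the same 451 and 287 of 3400. They were named after their values were seen. Mpo measured 4.9 and 11.3 in wildtype and 21.2 and 15.0 in HSL-null (1.15 ± 0.55). Lcn2 differed by 0.44 ± 0.14. Ly6g differed by 0.57, with both wildtype arrays under the floor. Camp was lower (-0.64 ± 0.42).

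Ligands and growth factors of these cells were mixed. Of 7 above the filter, 2 were higher, 1 was lower and 4 overlapped, beside 19.7% higher and 21.5% lower among all named genes above the filter. Ccl11, the eosinophil chemokine eotaxin, measured 48.3 and 46.0 in wildtype and 59.1 and 70.4 in HSL-null (0.45 ± 0.13). Kitl, the stem cell factor that binds Kit on mast cells, named after its values were seen, measured 82.2 and 71.5 in wildtype and 93.6 and 97.7 in HSL-null (0.32 ± 0.11). Csf3, a granulocyte growth factor, measured 38.0 and 46.7 in wildtype and 32.4 and 31.3 in HSL-null (-0.40 ± 0.15). Csf1, the ligand of Csf1r, overlapped at 69.0 and 68.6 in wildtype and 75.9 and 59.7 in HSL-null.

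Markers of other tissue components also differed between the pools. For comparison, 19.7% of all named genes above the filter were higher without overlap and 21.5% lower. All 6 fibroblast and matrix markers were higher in HSL-null without overlap, with summed levels of 3483 and 3448 in wildtype and 3939 and 4072 in HSL-null. All 3 erythroid markers were higher too, with sums of 2464 and 2564 in wildtype and 2791 and 2675 in HSL-null. Of 5 white adipocyte markers above the filter 3 were lower without overlap, led by Adipoq at 150.2 and 157.2 in wildtype and 73.5 and 74.1 in HSL-null. The sums of the adipocyte markers overlapped at 3460 and 3159 in wildtype and 3262 and 3455 in HSL-null. Lpl alone measured 2905 and 2617 in wildtype and 2853 and 3050 in HSL-null. The sums therefore follow Lpl and say little of the other adipocyte markers. Of 7 endothelial markers 1 was higher and 1 lower, with sums of 860 and 904 in wildtype and 848 and 851 in HSL-null. With 1 pool per genotype, any marker that differs between the pools goes along with these levels. The part of these tissue components in the marker differences cannot be told apart from genotype and was not tested.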

How the data were processed

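The authors' deposited table gives 1 linear intensity per probe set (12488) and array, for 2 arrays per genotype. The sources used here name no software, background correction or scaling step. After trimming 2% from each end, the array means were equal, so the values were used as deposited. In the platform annotation 10855 probe sets had 1 symbol, 396 several and 1237 none, and 10839 matched RefSeq by gene ID. Without a stated build, coordinates are given only for the RefSeq promoter sequences.

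Values were floored at the 25th percentile (5.7) and taken to log2, and genes whose mean reached the table's median probe set (27.7) were kept. Errors are SDs over 2 arrays and standard errors from duplicates. The number of arrays limits the precision. The 1.5-fold rule was checked on simulated data. Markers, lists and rules were chosen with earlier results of these data known. All markers were named. Of each further list, separated genes and the 2 largest without overlap were named; the others, marked or overlapping, were chosen after their values were seen. Normalizations used limma 3.58.1 in R 4.3.3, the rest Python 3.11.15.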

Additional observations from a re-analysis of the deposited data

How the results depend on the processing

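The count of separated markers was 0 in each direction under every alternative run, a lower and a higher size threshold among them. The higher threshold and the stricter filter could give no other count. Without the filter 5 markers were higher and the median over all markers was 0. With the filter at the 75th percentile C1qc alone was left, so that 0 were higher, 0 were lower and the median was 0.036. With the probe sets of each gene averaged, 2 markers were lower, the median over all markers was 0.021 and that of mast cell markers was -0.049. Probe sets under the floor on every array, such as the other ones of Cma1, add a difference of 0 to these averages and shrink them. Leaving out single arrays, which leaves 2 array pairs, gave 4 to 5 markers higher, 5 to 8 lower, 0 separated, medians of -0.14 to 0.0066 over all markers, of -0.025 to 0.030 for macrophage markers and of -0.21 to -0.097 for mast cell markers. With the replicate number as a block (2 same-numbered pairs), 3 markers were higher and 5 lower, against 25.4% and 27.5% of all named genes; the deviations of same-numbered arrays correlated at -0.067 over 4851 genes, and technical duplicates share only a number. Of 211 single-marker values under the alternatives, 208 moved by less than the spread of duplicates. The other 3 (Lyz2, Cpa3 and Tpsb2, with probe sets averaged) moved by more. Many of the 211 values could not have moved by more. Dropping the floor, changing the filter or the size threshold, and the block left the log2 differences of these markers unchanged. Leaving out an array can shift a difference only by less than the duplicate spread. For those settings the count of 208 is no test of stability. For 24 of 39 markers a low signal limits the comparison.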
